A study of Mus musculus with 4 samples.

Results

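The miR-101 family comprised 5 rows of the miRNA count tables, taken by name as every arm of miR-101a, miR-101b and miR-101c (mmu-miR-101a-3p, mmu-miR-101a-5p, mmu-miR-101b-3p, mmu-miR-101b-5p and mmu-miR-101c, written below without the species prefix), out of 1966 listed miRNA. Small RNA was sequenced from primary cortical neurons of WT and APP/PS1 mutant (TgAD) mouse embryos, with 2 libraries per genotype. TgAD neurons carry a pair of transgenes driven by the mouse prion promoter, which is active mostly in brain neurons. One encodes APP of mixed mouse and human sequence with the Swedish mutations, the other human presenilin 1 from which an exon is deleted. WT neurons carry neither transgene, the strain was B6C3-Tg APPswe, PSEN1dE9 85Dbo/J, and the sex of the embryos was not given. Cortex was taken at E16.5 according to the sample labels, neurons of each embryo were cultured separately, and both genotypes were kept for 5 days in vitro in serum-free medium without treatment. Neither transgene can be checked in these tables, which hold miRNA only.

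A miRNA is cut from a hairpin precursor, and 1 arm of the hairpin, the guide, is usually kept in the Argonaute complex while the other arm is degraded. The guide finds messages mainly through its seed, bases 2 to 8, which pairs with complementary letters in the 3′ UTR and leads to repression of the message. The 3p arm is the guide of miR-101. It is abundant in brain and is known as a repressor of the APP message, of Ezh2, the methyltransferase of Polycomb repressive complex 2, and of Ptgs2 (COX-2), an enzyme of prostaglandin synthesis.

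The mature sequences, from RefSeq on GRCm38.p6, are shown because the 3p members are nearly the same molecule with different annotated ends. All 5 members were matched by name. Capitals mark bases 2 to 8, and miR-144-3p, a miRNA from another locus with a related seed, is added for comparison.
miR-101a-3p: uACAGUACugugauaacugaa
miR-101b-3p: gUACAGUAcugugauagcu
miR-101c: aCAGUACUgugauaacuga
miR-101a-5p: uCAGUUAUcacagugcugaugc
miR-101b-5p: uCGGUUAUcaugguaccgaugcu
miR-144-3p: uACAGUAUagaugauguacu
The capitals of the 3 annotated 3p sequences are the same stretch read from start positions 1 base apart. miR-101b-3p is annotated as starting 1 base before miR-101a-3p and miR-101c as starting 1 base after it. The 5p arms have other seeds, which differ from each other by 1 letter.

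The 3 hairpins were compared around the 3p arm to show which letters tell the members apart. The windows below are 28 bases long, and capitals mark the longest unbroken run that is the same in all 3, of 14 bases.
Mir101a: agguACAGUACUGUGAUAacugaaggau
Mir101b: agguACAGUACUGUGAUAgcugaagaau
Mir101c: cugcACAGUACUGUGAUAacugaucgcc
Counted from base 1 of miR-101a-3p, the Mir101b hairpin differs within that arm only by A16G, and the Mir101c hairpin by U1C and A21U, at the 2 ends. Of the 2201 miRNA hairpins in GENCODE M21, an annotation of GRCm38, the whole sequence of miR-101c therefore occurs in 2, Mir101c and Mir101a, whereas each of the other 4 members occurs in 1. A read that consists of exactly the 19 bases of miR-101c cannot be assigned to 1 of these loci, so the counts of miR-101c are uncertain in this respect. How reads with several placements were counted is not given in the sources used here.

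The Mir101a hairpin lies on chromosome 4 from 101346945 to 101347027 on the minus strand, where it overlaps an exon of the long noncoding RNA E130102H24Rik (101346531 to 101356735, same strand). The mature miR-101a-3p is at 101346957 to 101346977 and miR-101a-5p at 101346993 to 101347014. Mir101b is on chromosome 19, plus strand, from 29135279 to 29135375, in intron 8 of Rcl1, a protein-coding gene from 29101375 to 29143929 on the same strand. Its 3p arm is at 29135338 to 29135356 and its 5p arm at 29135302 to 29135324. Mir101c lies on chromosome 9 from 3038669 to 3038743 on the minus strand and within no annotated gene, with the mature sequence at 3038680 to 3038698.

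The libraries held 2070204 to 4811010 reads counted on miRNA, and 849 to 936 miRNA had at least 1 read. Within a genotype the SD of the difference in log2 level over the tested miRNA was 0.499 between the WT libraries and 0.558 between the TgAD libraries, against 0.910 to 1.04 between genotypes. The labels of a second deposited table, of normalized values for 4 libraries, disagreed with those of the count files. Its column WT_1 held the reads of the TgAD replicate 1 file, WT_2 those of WT replicate 1 and TR_1 those of TgAD replicate 2, each at 100% of 674 miRNA, and TR_2 held a library that matched none of the count files. Results below use the count files with their own labels, and the values by the column names of that table are given beside them. Of the 5 neuron marker miRNA chosen, miR-128-3p was abundant, at 18305 and 33040 CPM in WT and 84058 and 59723 CPM in TgAD libraries, but miR-9-5p had 0 reads in all libraries and miR-124-3p had 1 to 7. The mature sequence of miR-9-5p is annotated at 3 loci, and 57.6% of the 59 listed miRNA whose sequence is annotated at 2 or more loci had 0 reads, compared with 39.7% of the 1616 at 1 locus. Markers of oligodendrocytes (miR-219a-5p, miR-338-3p) and endothelium (miR-126a-3p, miR-126a-5p) had 0 reads. The sequence of miR-219a-5p is annotated at 2 loci, but those of miR-338-3p and miR-126a-3p at 1 locus. The reason for these zeros was not tested, and they do not show that such cells were absent.

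The family was lower in TgAD neurons. It took 3.71% and 4.04% of all miRNA reads in WT and 1.38% and 1.03% in TgAD libraries, 3.22 times less on average. The TgAD libraries did not overlap with the WT libraries, and the two-sided exact permutation test gave p = 0.333, which is the smallest that 2 against 2 libraries allow. Since miR-99a-5p alone took 15.8% and 16.7% of the reads in WT and 27.0% and 31.8% in TgAD libraries, the share was also computed without it. It was then 4.41% and 4.85% in WT and 1.89% and 1.51% in TgAD libraries. In such bulk cultures fewer cells that make a miRNA and less of it per cell cannot be told apart.

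miR-101a-3p, the main guide strand of the family, was counted 55645 and 80151 times in WT and 27406 and 36140 times in TgAD neurons. In CPM, the read count relative to library size after scaling of the libraries by edgeR's TMM method, this was 23683 and 27528 in WT and 9988 and 8987 in TgAD neurons. Both TgAD libraries lay far under both WT libraries, and counting error was small, with a 95% exact Poisson interval of 8894 to 9080 CPM around the lowest value. The level fell by 63.0%, from 25606 ± 2718 to 9487 ± 708 CPM (SD, n = 2 each), or -1.43 as log2 fold change with a standard error of 0.212 (adjusted p = 0.00943, edgeR quasi-likelihood test, Benjamini-Hochberg adjustment over 496 miRNA). In rank by level among all listed miRNA it was 9th and 7th in WT and 14th and 15th in TgAD libraries.

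miR-101b-3p, the guide from the Rcl1 intron, was counted 21160 and 31025 times in WT and 10564 and 13323 times in TgAD neurons. Its level was 9006 and 10656 CPM in WT and 3850 and 3313 CPM in TgAD neurons, again without overlap. It fell by 63.6%, from 9831 ± 1166 to 3581 ± 380 CPM (SD, n = 2 each), or -1.46 as log2 fold change with a standard error of 0.211 (adjusted p = 0.00934 from the same edgeR test).

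For miR-101c, 89 and 80 reads were counted in WT against 14 and 10 reads in TgAD neurons. Its level was 37.9 and 27.5 CPM in WT and 5.10 and 2.49 CPM in TgAD neurons, so that both TgAD libraries were low, above the floor of 3 reads (0.746 to 1.28 CPM). Counting error was wide here, with 95% exact Poisson intervals of 2.79 to 8.56 and 1.19 to 4.57 CPM in the TgAD libraries and 30.4 to 46.6 and 21.8 to 34.2 CPM in the WT libraries. The mean fell from 32.7 ± 7.36 to 3.79 ± 1.85 CPM (SD, n = 2 each), or -3.14 as log2 fold change with a standard error of 0.425 (adjusted p = 0.00934 from the same edgeR test). miR-101c passed the filter on low counts through its WT libraries, and it ranked 2nd from the bottom in log2 fold change among the 496 miRNA tested.

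**Figure D1:**
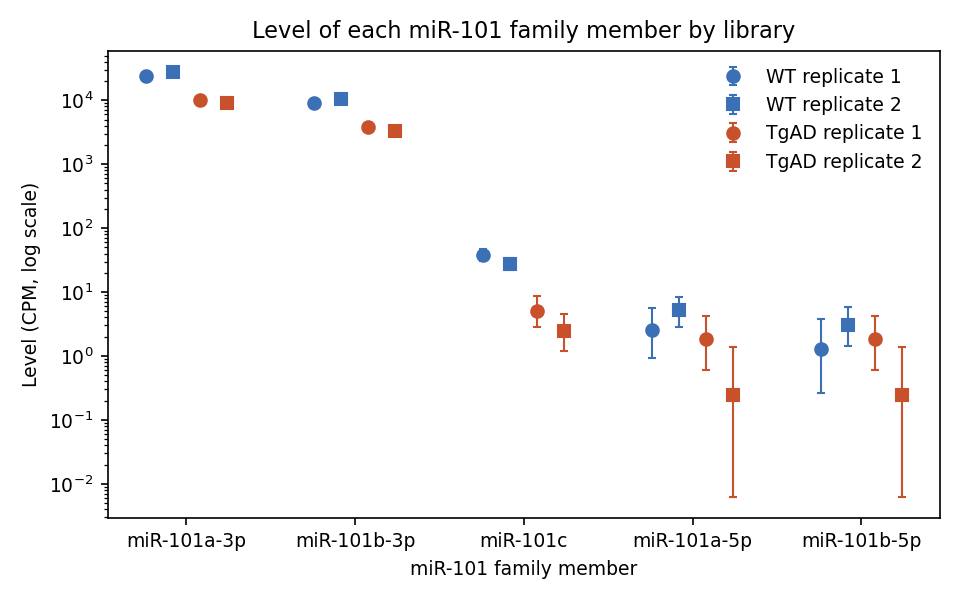
Level of the 5 members in each library in CPM on a log scale, with 95% exact Poisson intervals for counting error. Circles are replicate 1 and squares replicate 2 of WT (blue) and TgAD (orange). The TgAD points of miR-101a-3p (9988 and 8987 CPM), miR-101b-3p and miR-101c lie under the WT points, while the 5p arms rest on 1 to 15 reads per library, with wide intervals that overlap between WT replicate 1 and both TgAD libraries.

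The passenger arms were near the floor. For miR-101a-5p the libraries held 6 and 15 reads (WT) against 5 and 1 (TgAD), which was 2.55 and 5.15 CPM against 1.82 and 0.249 CPM. The TgAD values were the lower ones, but intervals overlapped in all pairs of libraries except WT replicate 2 and TgAD replicate 2 (2.88 to 8.50 CPM against 0.00630 to 1.39 CPM), and the exact permutation test gave p = 0.333. Over the pooled reads the TgAD to WT ratio of CPM was 0.222, with a 95% counting interval of 0.0734 to 0.569 that leaves out the spread between libraries. For miR-101b-5p they held 3 and 9 reads (WT) against 5 and 1 (TgAD), so that the genotypes overlapped. Its pooled ratio was 0.389, with a counting interval of 0.120 to 1.12, and a difference was not detectable at this depth. Both were removed by the filter, so that 3 of the 5 members were tested.

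The use of the hairpin arms was thus almost entirely on the 3p side in both genotypes. The 3p arm held 99.99% and 99.98% of the Mir101a reads in WT and 99.98% and 99.997% in TgAD libraries. For Mir101b it held 99.99% and 99.97% in WT and 99.95% and 99.99% in TgAD libraries. With 1 to 15 reads behind the 5p arms, a change of arm use could not be resolved.

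All 3 tested members were past the cutoffs of the study, a log2 fold change over 0.6 in size with an adjusted p under 0.1 by the edgeR test, and lower in TgAD neurons. Of all tested miRNA 33.1% passed these cutoffs, 17.3% lower and 15.7% higher in TgAD neurons. The 3 members were also past the stringent cutoffs of 1 and 0.01, which 4.44% of the tested miRNA passed, 3.02% lower and 1.41% higher. The WT and TgAD values of the 3 members did not overlap, as was the case in the lower direction for 32.5% and in the higher direction for 30.6% of the tested miRNA. Reads of miR-101c can also come from Mir101a, as described above, so these are not 3 independent observations. The median log2 fold change of all tested miRNA was 0.032. The stringent call was close to its limit, since with edgeR's RLE normalization the adjusted p values of the 3 members were 0.0117, 0.0116 and 0.0108.

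**Figure D2:**
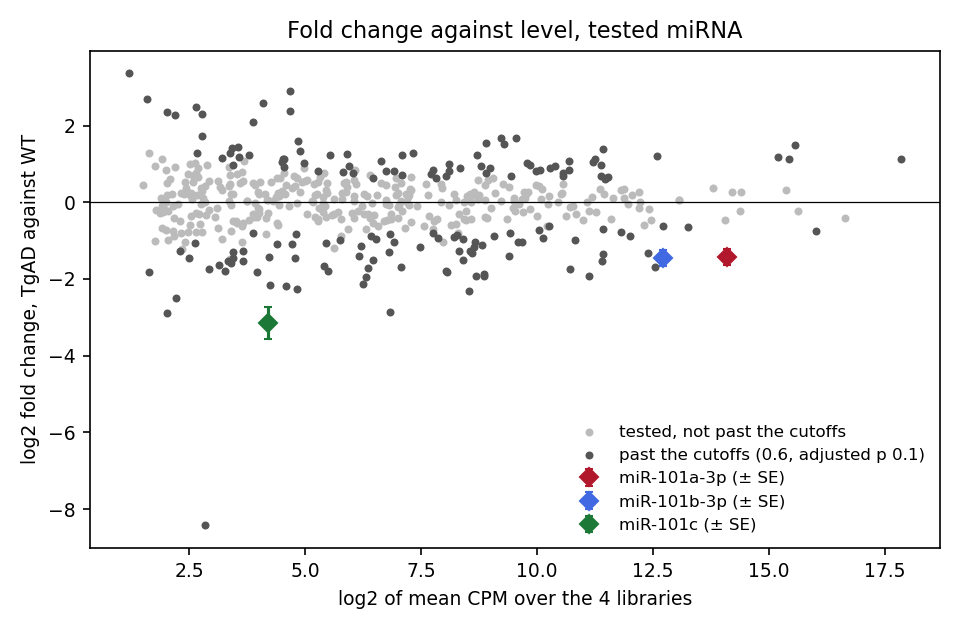
Log2 fold change of TgAD against WT for the 496 tested miRNA against the log2 of their mean CPM over the 4 libraries, with the 3 tested members as diamonds with their standard error. miR-101a-3p (-1.43) and miR-101b-3p (-1.46) are among the most abundant miRNA past the cutoffs in the lower direction, and miR-101c (-3.14) lies at low abundance. The lowest point belongs to a miRNA with 0 reads in both TgAD libraries, whose fitted value has no fixed size.

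To ask whether the members changed alike, their reads were compared within each library, where no normalization enters. There were 0.380 and 0.387 reads of miR-101b-3p per read of miR-101a-3p in WT and 0.385 and 0.369 in TgAD libraries. The mean log2 ratio differed by -0.025 between genotypes, more than the SD between the WT replicates (0.0181) and less than that between the TgAD replicates (0.0455), and the two-sided exact permutation test gave p = 0.667. The miR-101a and miR-101b guides, made on different chromosomes, thus kept nearly the same ratio in all 4 libraries.

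miR-101c did not keep this ratio. There were 1.60 and 0.998 reads of miR-101c per 1000 reads of miR-101a-3p in WT and 0.511 and 0.277 in TgAD libraries. The TgAD libraries were lower without overlap, with 95% exact binomial intervals of 1.28 to 1.97 and 0.791 to 1.24 in WT and 0.279 to 0.857 and 0.133 to 0.509 in TgAD, and the intervals of WT replicate 2 and TgAD replicate 1 overlapped. The mean log2 ratio differed by -1.75 (SD 0.481 in WT and 0.625 in TgAD, n = 2 each), a 3.36-fold lower ratio, with the smallest exact permutation p that the design allows (0.333). Against miR-101b-3p the ratio was 4.21 and 2.58 per 1000 in WT and 1.33 and 0.751 per 1000 in TgAD libraries. Because miR-101c was at most 0.116% of the family reads, it adds little to the level of the family.

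**Figure D3:**
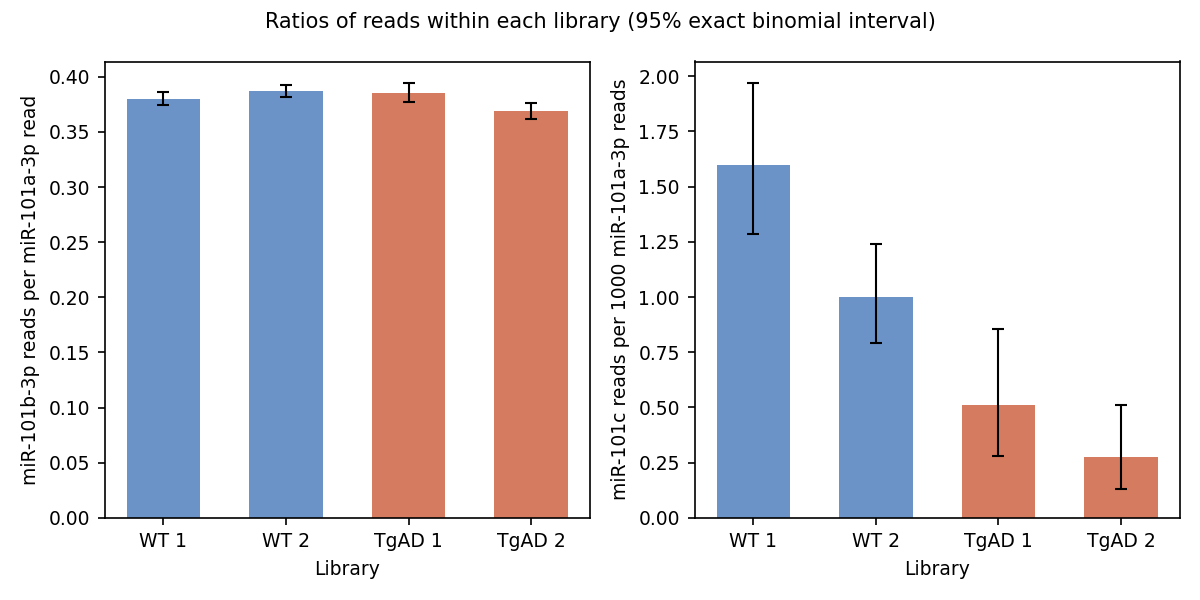
Reads of miR-101b-3p per read of miR-101a-3p (left) and reads of miR-101c per 1000 reads of miR-101a-3p (right) in each library, as bars from 0 with 95% exact binomial intervals for counting error. The left bars lie between 0.369 and 0.387 in both genotypes, and the right bars fall from 1.60 and 0.998 in WT to 0.511 and 0.277 in TgAD.

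The base composition of the miRNA moved with the comparison. Over the 441 tested miRNA with a known mature sequence, the log2 fold change was correlated across miRNA with GC content (Spearman's rho 0.420, genes of the same libraries and not independent replicates). Of the 30 miRNA under 36% GC, 46.7% were called lower, compared with 35.1% of the 114 from 36% to 45%, 12.5% of the 184 from 45% to 55% and 3.54% of the 113 at 55% or more. miR-101a-3p has 33.3% GC, miR-101c 36.8% and miR-101b-3p 42.1%, so that all 3 are in the lower range. After each library was corrected for its trend with GC content, the log2 fold changes became -0.63 for miR-101a-3p (adjusted p = 0.0808), -1.10 for miR-101b-3p (adjusted p = 0.0111) and -2.50 for miR-101c (adjusted p = 0.00460, all from the same edgeR test). They kept their direction and the cutoffs of 0.6 and 0.1, although miR-101a-3p only just, and miR-101a-3p and miR-101b-3p no longer passed the stringent cutoffs. The corrected values of miR-101a-3p and miR-101b-3p differ although their reads kept nearly the same ratio between genotypes, since the correction uses the GC content of the annotated sequences, which differ in their ends and by A16G.

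**Figure D4:**
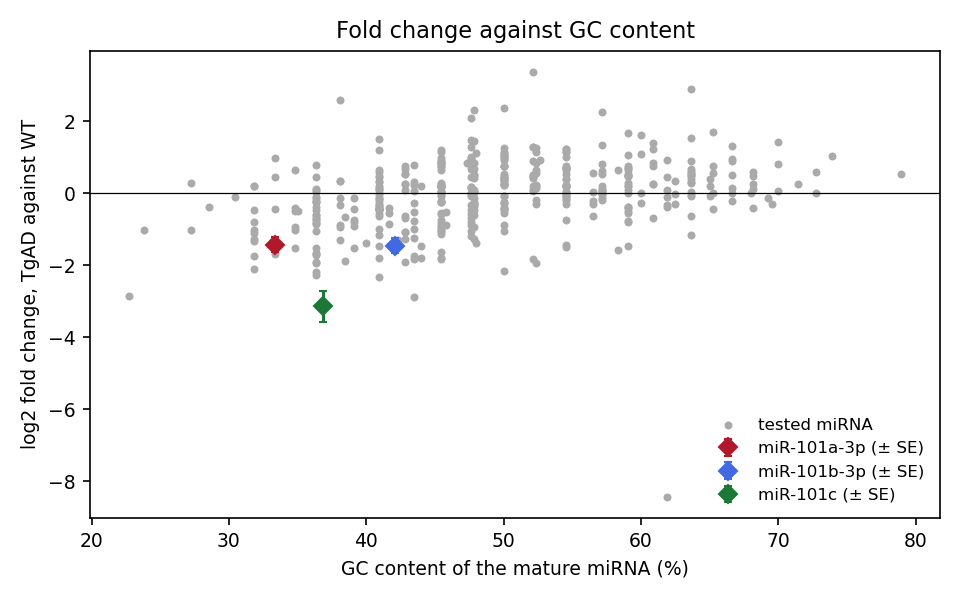
Log2 fold change of TgAD against WT against the GC content of the mature miRNA in percent for the 441 tested miRNA with a known sequence. The 3 tested members are diamonds with their standard error, at 33.3%, 36.8% and 42.1% GC, in the range where many other miRNA were also lower.

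Leaving out single libraries moved the values without changing a call at 0.6 and 0.1. The log2 fold change ranged from -1.60 to -1.32 for miR-101a-3p and from -1.65 to -1.33 for miR-101b-3p. That of miR-101c ranged from -3.77 without TgAD replicate 1 to -2.66 without TgAD replicate 2. With the reads recovered from the normalized table and its columns taken by name, none of the 3 was called (adjusted p = 0.476, 0.502 and 0.443 from the same edgeR test), although the log2 fold changes were still negative at -1.02, -0.90 and -2.70. By those names the genotypes hold other libraries than by the count files, as described above. In that fit 0 of the 480 miRNA tested were called, with 54 at an unadjusted p under 0.05.

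**Figure D5:**
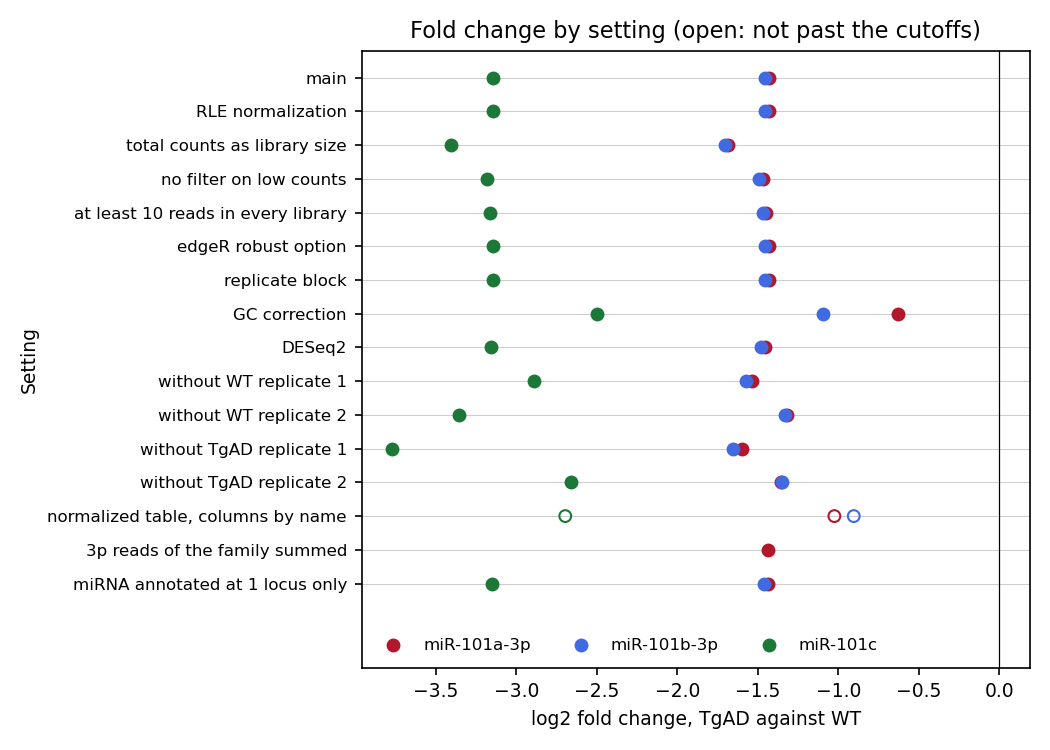
Log2 fold change of TgAD against WT for miR-101a-3p, miR-101b-3p and miR-101c under each setting of the analysis (main being the values given above), with filled points past the cutoffs of 0.6 and an adjusted p of 0.1 and open points not. All points lie left of 0. The correction for GC content moved miR-101a-3p to -0.63, and the columns of the normalized table taken by name gave the only open points.

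The miRNA with the pattern over the 4 libraries most like that of miR-101a-3p was miR-101b-3p, by the Euclidean distance of centred log2 CPM (0.0551). Outside the family the 5 nearest of the tested miRNA were miR-497b (0.116), miR-29a-5p (0.142), miR-29b-2-5p (0.159), miR-195a-5p (0.163) and miR-542-3p (0.178). All 5 were called lower, with log2 fold changes of -1.59, -1.53, -1.46, -1.28 and -1.33, as their choice by pattern implies. With the GC correction miR-542-3p (-0.46, adjusted p = 0.181 from the same edgeR test) and miR-29a-5p (-0.86, adjusted p = 0.152) were no longer called. Without WT replicate 2 the calls of miR-29a-5p (adjusted p = 0.128) and miR-29b-2-5p (adjusted p = 0.144) were lost. miR-195a-5p was the more abundant with miR-542-3p, at 484 and 578 CPM in WT and 230.3 and 208 CPM in TgAD libraries, while miR-497b was at 15.3 and 16.1 CPM against 5.47 and 4.97 CPM. miR-101c was 280th in this order (1.67).

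Among miRNA with a mean level like that of miR-101a-3p the values differed in direction. miR-340-5p and miR-21a-5p, just above it, had log2 fold changes of 0.28 (adjusted p = 0.581 from the same edgeR test) and -0.46 (adjusted p = 0.203). miR-99b-5p and miR-30e-5p, just below it, had 0.38 (adjusted p = 0.263) and -0.63 (adjusted p = 0.0554). Only miR-30e-5p, at 12168 and 11678 CPM in WT and 7908 and 7468 CPM in TgAD libraries, was called.

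Few reads were counted for other miRNA that hold a part of the seed of miR-101a-3p near their start. Bases 2 to 7 of miR-101a-3p were found within the first 9 bases of 3 other miRNA. miR-144-3p, made with miR-451a in erythroid cells, was read 2 and 3 times in WT and 0 and 2 times in TgAD libraries, at or under the floor. miR-199a-3p and miR-199b-3p, which have the same mature sequence at 3 loci, had 0 reads. As for miR-9-5p, the handling of reads with several placements is not known, so these zeros do not show that the miRNA were absent.

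Other miRNA known from the field to act on APP formed a list of 9 names, of which 8 were listed and 6 tested. The list was chosen with earlier results of these data known, so its share of calls is a description and not a test. It may leave out other miRNA reported to act on APP, so its counts in each direction hold for these names only. In TgAD neurons 3 of the 6 were called lower and 0 higher, with a median log2 fold change of -0.73, against 17.3% called lower and a median of 0.032 over all tested miRNA. miR-106b-5p, of the miR-17 seed family, fell from 3090 and 3981 CPM to 1116 and 764 CPM (log2 fold change -1.91, standard error 0.265, adjusted p = 0.00934 from the same edgeR test). miR-16-5p, known as a brake on cyclins and encoded at 2 loci, fell from 413 and 403 CPM to 156 and 78.6 CPM (log2 fold change -1.80, adjusted p = 0.0175). Its log2 fold change was -2.46 without TgAD replicate 1 and -1.38 without TgAD replicate 2. miR-384-3p fell from 514 and 577 CPM to 302 and 233 CPM (log2 fold change -1.03, adjusted p = 0.0240), but it has 27.3% GC and was at 0.032 after the correction for GC content. miR-17-5p, miR-20a-5p and miR-153-3p, which did not pass, had log2 fold changes of -0.26, -0.43 and -0.38. With the correction for GC content 2 of the list were called, miR-106b-5p (-1.60) and miR-16-5p (-1.68). In that fit miR-17-5p was at -0.33, miR-20a-5p at 0.10 and miR-153-3p at 0.29. miR-106a-5p had 2 to 11 reads and was not tested, and miR-147-3p had 0 reads.

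The list of miRNA known to act on BACE1, the β-secretase that cuts APP, held 11 listed names, of which 8 were tested. Of these 2 were called lower, 2 higher and 4 not, against 17.3% lower and 15.7% higher over all tested miRNA, and the median log2 fold change was 0.012. miR-29c-3p fell from 45.1 and 34.0 CPM to 6.56 and 10.4 CPM (log2 fold change -2.19, adjusted p = 0.0104 from the same edgeR test), and miR-195a-5p had -1.28 (adjusted p = 0.0104). miR-298-5p rose from 1042 and 1217 CPM to 1797 and 2025 CPM (log2 fold change 0.76, adjusted p = 0.0369), and miR-328-3p from 1283 and 1078 CPM to 2166 and 2072 CPM (log2 fold change 0.84, adjusted p = 0.0276). Both rises were no longer called with total counts as library size, at 0.49 (adjusted p = 0.178) and 0.58 (adjusted p = 0.120), nor without 1 WT library, replicate 1 for miR-298-5p (0.65, adjusted p = 0.170) and replicate 2 for miR-328-3p (0.72, adjusted p = 0.119). That of miR-298-5p was also lost with the GC correction (0.45, adjusted p = 0.204).

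Markers of other cells were read beside the fall of the family. The summed level of the 3 glial markers (miR-21a-5p, miR-146a-5p and miR-143-3p) was 18918 and 24003 CPM in WT and 16745 and 15507 CPM in TgAD libraries, with 0 of 3 called. Most of it was miR-21a-5p, at 17138 and 22581 CPM in WT and 15120 and 13721 CPM in TgAD libraries. The erythroid marker miR-451a was at 1309 and 1330 CPM in WT and 957 and 645 CPM in TgAD libraries and was called lower (log2 fold change -0.72, adjusted p = 0.0707 from the same edgeR test), while miR-486a-5p had 0 reads. The call of miR-451a was lost with the GC correction (-0.052, adjusted p = 0.907) and without WT replicate 1 (adjusted p = 0.104), WT replicate 2 (adjusted p = 0.119) or TgAD replicate 2 (-0.46, adjusted p = 0.160). Myeloid markers summed to 10.2 and 9.96 CPM in WT and 13.8 and 14.7 CPM in TgAD libraries, and vessel wall markers to 901 and 718 CPM in WT and 827 and 756 CPM in TgAD libraries, with 0 called. Nearly all of the vessel wall sum was miR-143-3p, which is also among the glial markers, so the glial and vessel wall sums are not separate readouts. The 5 neuron markers summed to 21121 and 35034 CPM in WT and 86098 and 62005 CPM in TgAD libraries. Nearly all of it was miR-128-3p, the 1 of the 3 tested that was called higher. miR-138-5p and miR-218-5p were not called and differed in direction, with log2 fold changes of -0.63 (adjusted p = 0.226 from the same edgeR test) and 0.35 (adjusted p = 0.521). All 3 tested neuron markers are annotated at 2 loci, and how reads with several placements were counted is not known. The part of the shifts of these markers in the result for the family was not tested.

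No message was measured in these libraries. The letters that pair with the seed can only be looked up in the reference, which is done here for the known targets of miR-101. The complement of bases 2 to 8 of miR-101a-3p is GTACTGT. Searched on the message strand, it occurs at positions 255 and 4848 of the longest annotated 3′ UTR of App. This 3′ UTR is that of transcript App-206 and is 5646 bases long. Other 3′ UTRs of App were not searched, and a message with a shorter one may lack these matches. GTACTGT also occurs at positions 59 and 114 of Ezh2, at position 1619 of Ptgs2 and not in Bace1. It is found in 9.31% of the longest 3′ UTRs of 20292 protein-coding genes and in 36.9% of the 344 with a length within 10% of that of App. Matches are shown in capitals in the message from 5′ to 3′, to be set against the seed of miR-101a-3p above.
App at 255: gggttttgtGTACTGTaaaaaaaaaa
App at 4848: taaagttgaGTACTGTtcacgaaata
Ezh2 at 59: gaaccttgaGTACTGTgggcaattta
Ezh2 at 114: atttgcaaaGTACTGTaacagtaatt
Ptgs2 at 1619: tcagctgagGTACTGTatattactga
The letters are those of the reference mouse genes and not of the transgenes. The annotated start of miR-101c gives another complement, AGTACTG, overlapping the first by 6 letters, which occurs once in App, at 2 places in Ezh2, in no place in Ptgs2 and once in Bace1. That of miR-101b-3p, TACTGTA, occurs at 2 places in App, once in Ezh2 and in Ptgs2 and not in Bace1. AGTACTG and TACTGTA are found in 8.68% and 12.2% of the 3′ UTRs, and in 32.3% and 43.0% of the 344 near App in length.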

How the data were processed

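Small RNA of 2 WT and 2 TgAD cultures was sequenced, and the authors deposited whole-number counts in 1 table per library (adapters removed, reads placed without mismatch on GRCm38 by Bowtie2, miRBase miRNA counted by HTSeq-count). They also deposited a table of normalized values, a signal equal to counts divided by a size factor (DESeq2 per the submitters' processing notes). Since 100% of these values came out as whole reads (tolerance 0.01), reads were recovered and used in 1 alternative.

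The counts went into edgeR 4.0.16 under R 4.3.3 (with limma 3.58.1), using TMM normalization, the filterByExpr filter, which left 496 miRNA, the quasi-likelihood test with genotype as the only factor and Benjamini-Hochberg adjustment over all of them. Standard errors are the size of the log2 fold change divided by the square root of F. Single values were compared by the two-sided exact permutation test, and intervals and the floor of 3 reads cover counting error only, as the reads have no molecular identifiers. Alternatives were RLE normalization, total counts, other filters, DESeq2 1.42.0, the robust option, the replicate block, a GC correction (local regression, span 0.75, prior count 2, GC known for 88.9% of tested miRNA), summed 3p reads and each library left out. The fit on miRNA annotated at 1 locus and the recount of the lists were chosen after seeing the data. The procedure was also run on simulated data with the same spread for all miRNA, independent libraries and no trend with GC content. These settings are simpler than the data, and no result here rests on that run.

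The family, the lists, the markers and the rule for naming miRNA (all members, list members and markers, the 5 nearest patterns and 4 neighbours in level) were chosen with earlier results of these data known. 3′ UTRs on mouse chromosome 18 were left out of the motif search. Replicates are cultures of separate embryos. Correlation of replicate deviations between genotypes was 0.216 for the shared numbers, which the labels do not tie to a litter or day. Python 3.11.15, pandas 2.3.3, SciPy 1.17.1 and matplotlib 3.10.9 were used for sequences and figures.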

Additional observations from a re-analysis of the deposited data

How the results depend on the processing

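The 3 tested members kept their direction under every alternative run, and they kept the cutoffs of 0.6 and 0.1 under all but the normalized table read by its column names. That table gave log2 fold changes of -1.02, -0.90 and -2.70 for miR-101a-3p, miR-101b-3p and miR-101c, 0 miRNA called in all, 0 called of the APP list and 0 of the BACE1 list. The difference in log2 ratio became 0.12 for miR-101b-3p to miR-101a-3p and -1.16 for miR-101c to miR-101a-3p, and that in family share -1.65 percentage points. By the labels of the count files the columns hold other libraries than their names, and 1 of them is in no count file. By the labels of the count files, the SD of the difference in log2 level was 0.499 between WT and 0.558 between TgAD libraries. The column names instead pair the files of WT replicate 1 and TgAD replicate 1, where it was 0.917. DESeq2 with the count file labels called 143 miRNA, 83 lower and 60 higher, with 67 past the stringent cutoffs. The paper also reports more miRNA lower than higher. The count file labels thus group the libraries that are more alike, but genotype itself was not tested. Over the other settings the adjusted p was at most 0.0808 for miR-101a-3p, 0.0200 for miR-101b-3p and 0.0156 for miR-101c, from edgeR or DESeq2 with Benjamini-Hochberg adjustment. With miR-99a-5p left out of the denominator the difference in family share was -2.93 percentage points, against -2.68.

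With each library left out in turn (in a fit where the lone library is assumed to vary like the other genotype), the log2 fold change ranged from -1.60 to -1.32 for miR-101a-3p, from -1.65 to -1.33 for miR-101b-3p and from -3.77 to -2.66 for miR-101c. The ratio differences ranged from -0.058 to 0.0068 and from -2.19 to -1.31, that in family share from -2.85 to -2.50, and the number of miRNA called from 123 to 180, with 3 to 4 of the APP list and 3 to 5 of the BACE1 list. The replicate block gave -1.43, -1.46 and -3.15 for the 3 members and 188 miRNA called against 164. The numbers share no stated origin, and the block changed no call of the members. With total counts as library size the median log2 fold change of all tested miRNA moved from 0.032 to -0.23, 122 of 165 called miRNA were lower against 86 of 164, and the members were at -1.68, -1.70 and -3.41.

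The number past the stringent cutoffs depended on the setting, at 22 in the reported fit, 0 with RLE normalization (181 at an unadjusted p under 0.05), 67 with DESeq2, 28 with the GC correction, 32 with the robust option, 86 with total counts, 97 with no filter and 102 with the replicate block. Among the other named miRNA, 188 of 221 values under an alternative kept direction and call, and 5 changed sign: miR-17-5p (0.075 without WT replicate 2, with -0.53 to 0.075 over the libraries left out), miR-20a-5p (0.10), miR-153-3p (0.29) and miR-384-3p (0.032), each of these 3 with the GC correction, and miR-497b (0.30 with the normalized table by name). The cause was not tested. With no filter, miR-101a-5p was at -2.06 (log2 fold change, edgeR adjusted p = 0.0696) and miR-101b-5p -1.24 (adjusted p = 0.564), at a depth of 1 to 15 reads. DESeq2 gave them -1.99 (unadjusted p = 0.145) and -1.16 (unadjusted p = 0.469), with no adjusted p for either. The 4 neighbours of miR-101a-3p in level were not recomputed under the alternatives.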

Other observations

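The column TR_2 of the deposited normalized table held a library of 1926952 recovered reads that matched no count file, at most 4.45% of its 674 miRNA having the same count as any file. In it miR-101a-3p had 10116 reads, miR-101b-3p 4740, miR-101c 6, miR-101a-5p 3 and miR-101b-5p 2. The family took 0.772% of its reads, below the share in the 4 count files. It held 0.469 reads of miR-101b-3p per read of miR-101a-3p, above the range of 0.369 to 0.387 in the count files, and 0.593 reads of miR-101c per 1000 reads of miR-101a-3p. The genotype of TR_2 is known only from its column name. Of the other columns, WT_1 held the reads of a TgAD file, while WT_2 and TR_1 held those of files of the genotype in their names. TR_2 therefore entered no comparison of the report other than the one by column name.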
